A study of Mus musculus with 3 samples.

Results

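The genes described are 7 mouse genes of local glucocorticoid activation and response, chosen by symbol from the 31053 genes of the count tables: the activating enzyme gene Hsd11b1, the receptor genes Nr3c1 and Nr3c2, and the hormone-induced genes Fkbp5, Tsc22d3, Per1 and Zbtb16. Their unique molecular identifiers (UMIs, 1 per captured transcript molecule) were counted in every kept cell of 3 droplet libraries and summarised by the 35 cell labels deposited with the cells. The tissue was the iridocorneal angle and limbus of mice of a mixed strain aged 6 weeks, the region in which aqueous humor leaves the eye, and each library came from pooled eyes of several mice after 2 generations of crossing to wild-type ICR mice. Both control libraries were from Angpt1 flox/flox mice, and the third, Angpt1ΔNC, was from Angpt1 flox/flox;Wnt1Cre+ mice, in which Cre acts in neural crest derivatives, so every group carried the floxed allele. Schlemm's canal is hypomorphic in Angpt1ΔNC eyes, which develop ocular hypertension.

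Glucocorticoid hormones act inside cells. The enzyme 11beta-hydroxysteroid dehydrogenase type 1, the product of Hsd11b1, regenerates active corticosterone from the inert 11-dehydrocorticosterone, so a cell that carries the enzyme can raise its own hormone level. The hormone binds the glucocorticoid receptor (Nr3c1), which leaves its chaperone complex, enters the nucleus and binds glucocorticoid response elements, and the mineralocorticoid receptor (Nr3c2) binds the same hormone. Fkbp5 (a co-chaperone that lowers the receptor's affinity for hormone), Tsc22d3 (the leucine zipper protein GILZ), Per1 (a repressor of the circadian clock) and Zbtb16 (the zinc finger factor PLZF) are widely used readouts of receptor activity. In the eye, glucocorticoid treatment can raise intraocular pressure through the trabecular meshwork.

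Kept cells numbered 9076 and 10160 in control replicates 1 and 2 and 6772 in Angpt1ΔNC, with 66484181 to 80346829 UMIs per library and a median of 6330 to 7444 UMIs per cell. Angpt1, the targeted gene, was at 37.8 and 39.3 counts of its UMIs per 1000000 UMIs (CPM) in the controls and at 0.391 in Angpt1ΔNC. The pools also differed in sex. Xist, the RNA of the inactive X chromosome, was at 0.0390 and 0.0249 CPM in the controls and at 652 in Angpt1ΔNC, so sex and genotype cannot be told apart except in cells typed as male, which were 69.7% and 72.1% of control and 29.4% of Angpt1ΔNC cells. Between 13 and 25 cell barcodes were shared by each pair of libraries. With 1 Angpt1ΔNC library, the p-values rest on the spread between both controls and on the spread of other genes, and the single Angpt1ΔNC library was assumed to vary like the controls.

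Promoter windows from the RefSeq table (build GRCm38.p6, 250 bases before to 50 bases after a transcript start) were examined for Hsd11b1, Nr3c2, Fkbp5, Per1 (2 starts) and Tsc22d3 (3 starts). No window of Nr3c1 or Zbtb16 was examined. The 4 windows below, for Per1 and Tsc22d3 those of their starts that hold a motif, show which known letters lie beside the starts of the activating enzyme and of 3 induced genes. They are written 5′ to 3′ on the strand of the gene, and capitals mark an E-box (CACGTG, the site of clock factors) or 1 arm of the palindromic receptor element (AGAACA, or TGTTCT on the other strand).
Hsd11b1, chr1:193242311-193242610, minus strand: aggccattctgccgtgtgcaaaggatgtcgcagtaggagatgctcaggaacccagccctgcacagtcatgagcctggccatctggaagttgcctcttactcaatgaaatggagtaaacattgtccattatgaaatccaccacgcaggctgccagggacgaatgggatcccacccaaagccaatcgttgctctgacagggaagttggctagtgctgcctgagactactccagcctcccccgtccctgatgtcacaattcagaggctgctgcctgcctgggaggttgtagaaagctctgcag
Fkbp5, chr17:28486100-28486399, minus strand: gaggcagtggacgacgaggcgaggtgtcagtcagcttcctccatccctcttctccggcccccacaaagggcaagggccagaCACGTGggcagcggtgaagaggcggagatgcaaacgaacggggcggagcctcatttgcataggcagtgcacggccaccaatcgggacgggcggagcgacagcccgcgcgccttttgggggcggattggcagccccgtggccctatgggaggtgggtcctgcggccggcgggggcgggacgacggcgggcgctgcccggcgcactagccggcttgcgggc
Per1, chr11:69098699-69098998, plus strand: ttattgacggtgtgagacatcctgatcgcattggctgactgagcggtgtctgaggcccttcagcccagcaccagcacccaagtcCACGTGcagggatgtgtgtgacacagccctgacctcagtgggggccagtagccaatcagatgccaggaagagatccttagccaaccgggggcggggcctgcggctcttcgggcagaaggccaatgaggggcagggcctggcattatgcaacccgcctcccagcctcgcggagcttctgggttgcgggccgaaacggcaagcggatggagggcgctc
Tsc22d3, chrX:140600473-140600772, minus strand: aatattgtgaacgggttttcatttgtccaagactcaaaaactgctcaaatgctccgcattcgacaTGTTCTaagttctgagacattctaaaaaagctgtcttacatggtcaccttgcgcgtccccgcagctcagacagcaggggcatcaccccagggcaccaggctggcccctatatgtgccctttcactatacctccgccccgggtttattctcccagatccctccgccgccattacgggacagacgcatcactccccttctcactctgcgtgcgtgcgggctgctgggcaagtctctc
Fkbp5 and 1 of the 2 Per1 windows each held 1 E-box, at positions -169 and -166 from the start, and 7.15% of all 32851 windows hold that motif. One of the 3 Tsc22d3 windows held 1 arm, at position -185, and 18.97% of all windows hold an arm on either strand. The full element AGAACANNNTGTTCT was in none of the members' windows examined, and 0.00913% of all windows hold it without a mismatch. The nearest stretch in the Hsd11b1 window differed from the full element at 4 letters, a distance reached by 57.1% of windows. The cyclic AMP response element TGACGTCA, in 1.79% of windows, was in none of them. These letters describe a short window only.

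Levels by label are a description without a test, because the labels came from clustering the same cells. A level is the mean over cells of UMIs per 10,000 UMIs of the cell. The 32 labels with at least 20 cells in every library were ranked by the mean of both controls. The heatmap sets the 7 genes side by side.

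**Figure D1:**
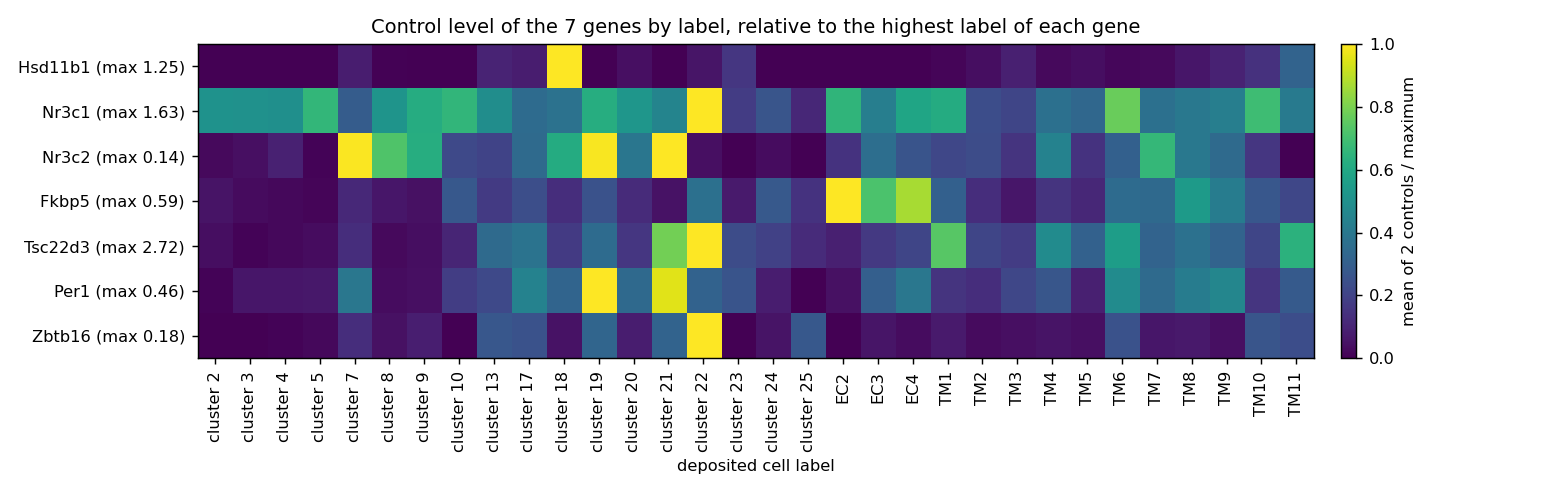
Mean control level of each of the 7 genes (rows) in the 32 ranked labels (columns), as a share of the gene's own highest label, whose level in UMIs per 10,000 stands beside its symbol. Hsd11b1 is concentrated in cluster 18, Nr3c1 is broad, Fkbp5 is highest in EC2 to EC4, and Per1 is highest in clusters 19 and 21.

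Hsd11b1 was concentrated in 1 stromal label, cluster 18. Its level there was 1.04 and 1.46 UMIs per 10,000 in control replicates 1 and 2 and 1.34 in Angpt1ΔNC. All 3 libraries lay above every value of the next label, TM11 (0.363, 0.428 and 0.249), and the control mean of cluster 18 was 3.16 times that of TM11. Cluster 18 was led by Ptn, Enpp2, Igf1, Arhgap20 and Mmp19, and Hsd11b1 itself was the eighth of its leading genes by fold over the other cells. Of its cells 70.0% held a UMI of Pdgfra and 74.1% of Col1a1, both stromal genes, against 0.400% with the endothelial Cdh5.

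The share of cluster 18 cells with a UMI of Hsd11b1 was 36.5% (95% exact binomial interval 31.1 to 42.3) and 44.8% (37.1 to 52.8) in the controls and 267 of 534 cells (45.7% to 54.3%) in Angpt1ΔNC. After each cell was thinned to 1000 UMIs, these shares were 9.97%, 12.7% and 9.74%, in which Angpt1ΔNC no longer stood highest. No UMI of Hsd11b1 was found in the endothelial labels SC, LEC and EC2 to EC4, in 0 of 295, 0 of 327 and 0 of 209 cells, which allows a share of cells with a UMI of up to 1.02%, 0.917% and 1.44% and sets no limit on cells that express the gene. In the epithelial clusters 2 to 5 it was found in 1, 2 and 5 cells of 1143, 1153 and 1172. In all, 10 of the 35 labels held no UMI of the gene in any library. Such intervals and limits cover counting error only.

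Lower Hsd11b1 levels were found in fibroblast-like labels. TM10, with Clec3b, Pi16 and Cd34 among its leading genes, held 0.206, 0.154 and 0.269 UMIs per 10,000 in control replicate 1, control replicate 2 and Angpt1ΔNC. TM9, led by Inmt, Cxcl12 and Tfpi2, held 0.0618, 0.181 and 0.343, and here Angpt1ΔNC lay above both controls. In cluster 23, a myeloid label, the values 0.0797, 0.312 and 0.00858 came from 2, 14 and 1 UMIs, so its place in the order rests on control replicate 2. From TM11 down to cluster 7 each neighbour in the order overlapped the next.

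Over whole libraries Hsd11b1 was at 4.69 and 4.75 CPM in the controls and 12.97 in Angpt1ΔNC. Cluster 18 supplied 49.9% and 33.2% of its UMIs in the controls and 62.5% in Angpt1ΔNC, while cluster 18 cells made up 3.32%, 1.62% and 7.89% of kept cells. Outside cluster 18 the level was 2.40, 3.21 and 5.16 CPM. Within cluster 18 the genotypes were not called different (log2 fold change 0.11 ± 0.27 (SE), edgeR quasi-likelihood adjusted p = 0.906), and the whole-library level moved with the number of cluster 18 cells as well as with the level outside that cluster.

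Of both receptors, Nr3c1 was found everywhere and Nr3c2 was sparse. Nr3c1 had UMIs in all 35 labels in every library, and 38.8%, 35.4% and 33.5% of all kept cells held at least 1. It was highest in cluster 22, a lymphocyte label led by Igkc, Ccl5 and Cd79a in which 26.9% of cells held the T cell gene Cd3e, with 1.86, 1.40 and 2.36 UMIs per 10,000. The next label, TM6, held 1.37, 1.14 and 0.635, and the ranges of cluster 22 and TM6 did not overlap. The corneal epithelium, cluster 5, held 1.13, 1.03 and 0.842, and in that label 85.0%, 79.4% and 74.4% of the cells had a UMI. Its cells were deep, with 13752055 UMIs in 575 cells of control replicate 1, against 230846 in 89 cells of cluster 22. Such shares rise with depth and are not comparable with those of shallower labels. Among the trabecular labels, TM4, in which 84.5% of cells held Myoc, had 0.591, 0.610 and 0.533. Cluster 23 and cluster 25, both myeloid, were the lowest ranked labels. Schlemm's canal cells, label SC, held 1.65, 1.31 and 1.21, the last from 15 cells.

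Nr3c2 had 909 UMIs in all, against 16004 of Nr3c1. Its highest ranked labels were cluster 21 (0.135, 0.150 and 0.0652 UMIs per 10,000), the ciliary epithelium cluster 7 (0.144, 0.139 and 0.119) and the smooth muscle cluster 19 (0.151, 0.131 and 0.0527). These 3 labels overlapped one another and were not set apart from the pigmented cluster 8 that followed (0.104, 0.102 and 0.0790). TM11, cluster 23 and cluster 25 held no UMI of it in any library.

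**Figure D2:**
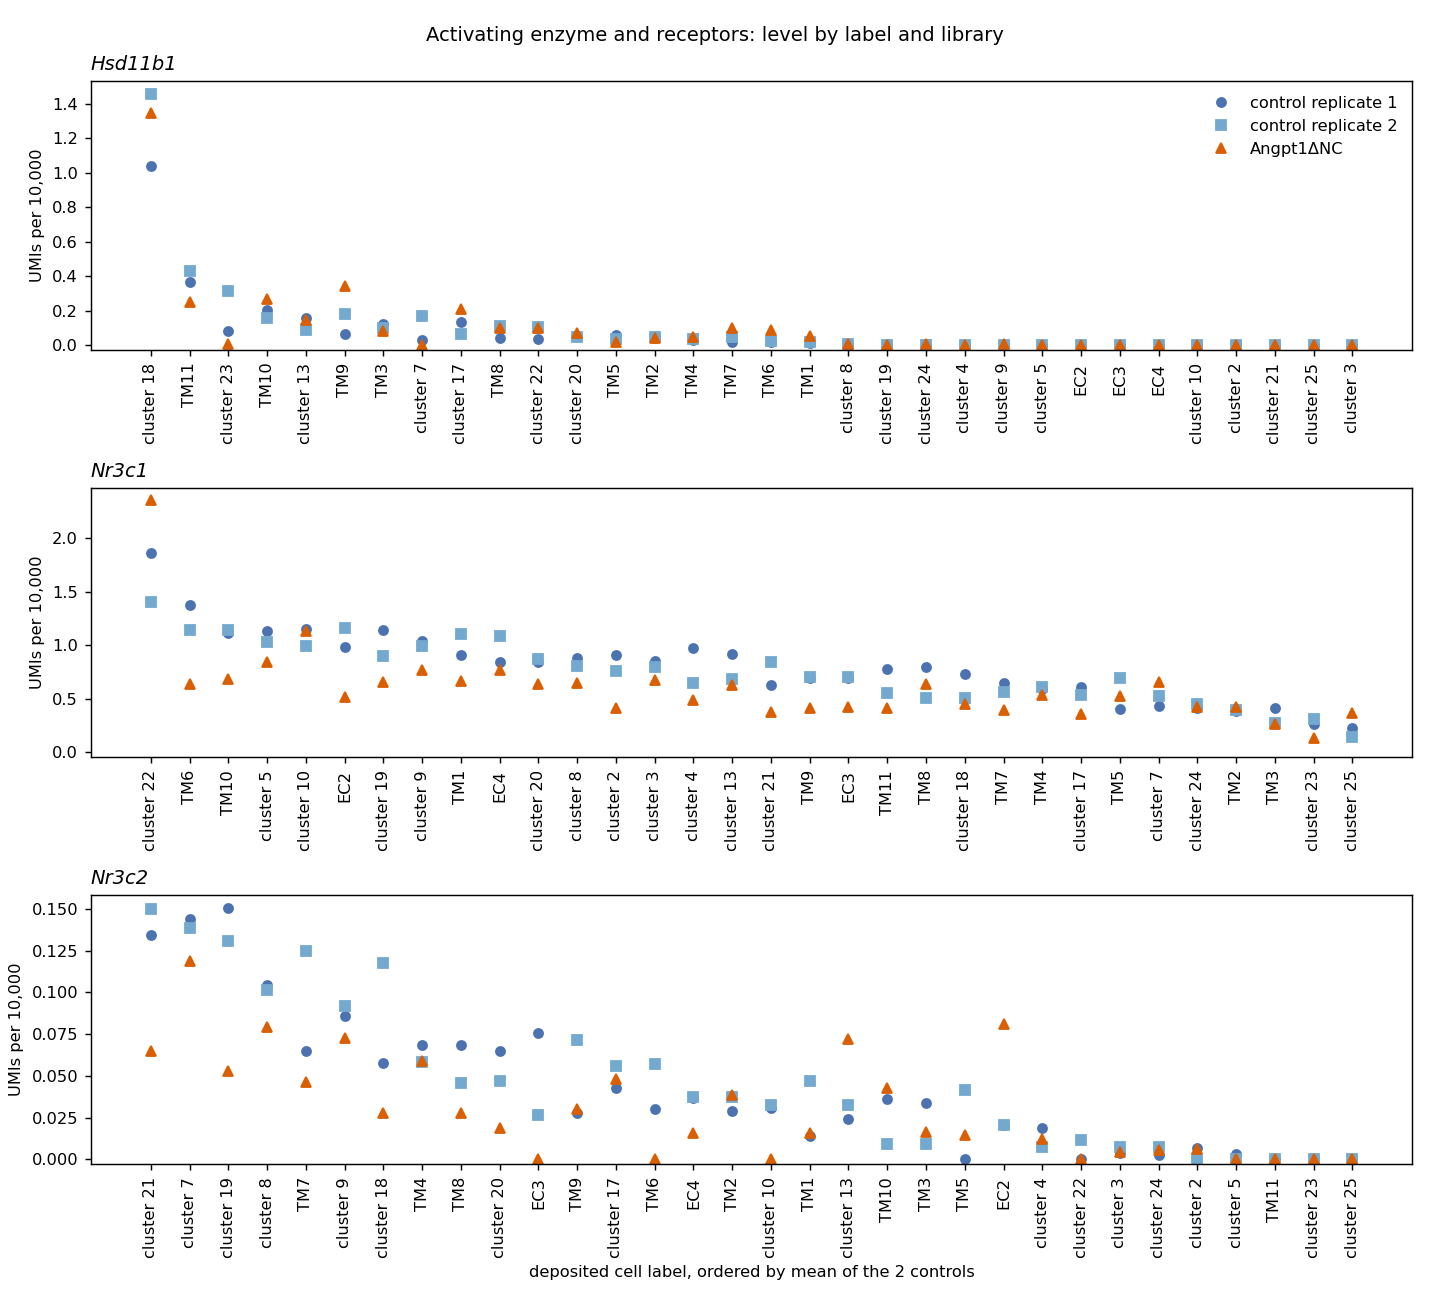
Level of Hsd11b1, Nr3c1 and Nr3c2 (UMIs per 10,000, mean over cells) in the 32 ranked labels, ordered by the mean of both controls, with 1 point per library. The 3 libraries of cluster 18 stand above all other labels for Hsd11b1, and for Nr3c1 the Angpt1ΔNC point lies below both controls in 24 labels.

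Among the induced genes, Fkbp5 was highest in endothelium. EC2 held 0.673 and 0.505 UMIs per 10,000 in the controls and 0.179 in Angpt1ΔNC, EC4 held 0.473, 0.549 and 0.359, and EC3 held 0.441, 0.404 and 0.274. Cdh5 was found in 96.6% to 99.7% of the cells of these 3 labels. Label SC held 0.638, 0.374 and 0.491, so Schlemm's canal cells lay within the range of the blood endothelial labels. The Angpt1ΔNC value was below both controls in each of EC2, EC3 and EC4, but Fkbp5 was not called in EC3 or EC4 (adjusted p = 0.400 and 0.694, edgeR), and EC2 had too few cells for a test. The lowest ranked labels were the epithelial clusters 3, 4 and 5, at 0.00685 to 0.0322 in any library.

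Tsc22d3, with 10347 UMIs the most abundant of the induced genes, was highest in cluster 22 (2.56, 2.88 and 1.47 UMIs per 10,000), followed by the mural cluster 21 (1.99, 2.28 and 0.567) and the keratocyte label TM1 (1.59, 2.43 and 3.05). Cluster 21 held Acta2 in 99.5% and Rgs5 in 93.7% of cells. In cluster 22 and cluster 21 Angpt1ΔNC lay below both controls, and in TM1 above both. The Myoc-rich TM4 held 1.35, 1.29 and 2.45, also with Angpt1ΔNC above both. The surface epithelia (clusters 2 to 5) and the pigmented clusters 8 and 9 were the 6 lowest ranked labels.

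Per1 was highest in both smooth muscle labels. Cluster 19 held 0.409, 0.515 and 0.329 UMIs per 10,000 and cluster 21 held 0.352, 0.530 and 0.291, and in each of them Angpt1ΔNC lay below both controls. Cluster 21 and the next label, TM6 (0.164, 0.280 and 0.0998), did not overlap. Zbtb16 was sparse, with 442 UMIs in all, and highest in cluster 22 (0.237, 0.129 and 0.440), from 4, 4 and 18 UMIs. Its control level elsewhere was at most 0.1003 in either library, and 4 labels held no UMI of it.

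**Figure D3:**
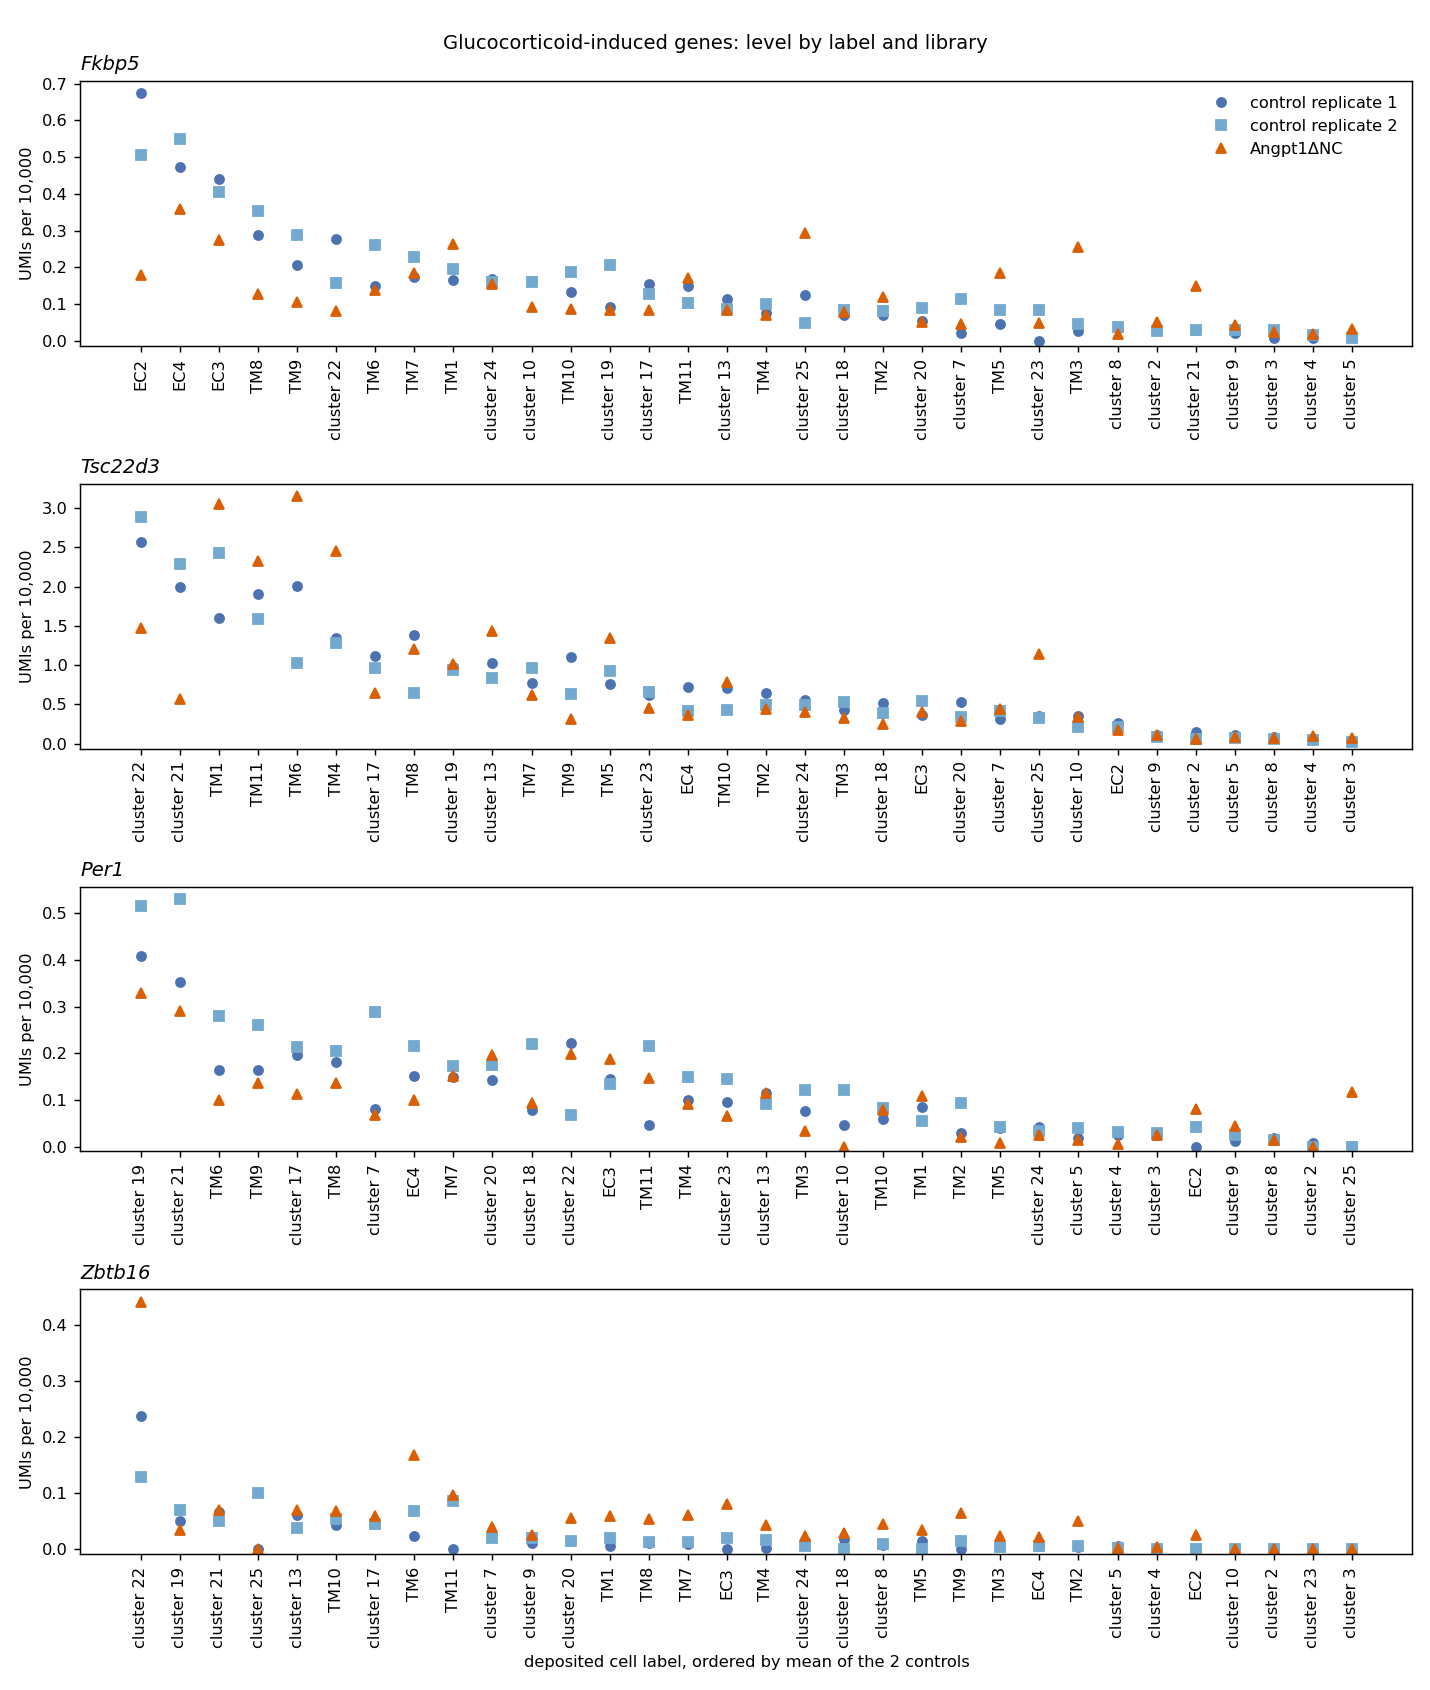
Level of Fkbp5, Tsc22d3, Per1 and Zbtb16 (UMIs per 10,000, mean over cells) in the 32 ranked labels, ordered by the mean of both controls, with 1 point per library. Fkbp5 is highest in EC2, EC4 and EC3, Per1 in clusters 19 and 21, and the Angpt1ΔNC point of Zbtb16 lies above both controls in 26 labels.

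The enzyme, the receptors and the induced genes did not share 1 order of labels. Over the 32 labels, Pearson's r between log2 levels was -0.17 for Hsd11b1 with Nr3c1, -0.01 for Hsd11b1 with Fkbp5 and 0.02 for Nr3c1 with Tsc22d3. Tsc22d3 and Zbtb16 (r = 0.66) and Tsc22d3 and Per1 (r = 0.65) were the most alike pairs of members. Before the logarithm 0.1 was added to each level, and Zbtb16 exceeded 0.1 in cluster 22 alone (0.269, mean of 3 libraries). Its r values therefore rest largely on that label. The labels share libraries and differ in depth, so these values are descriptions.

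Of 6953 genes above a minimum level, those closest to Hsd11b1 across labels were Mmp19 (r = 0.82), Ttc39c (r = 0.78) and Phykpl (r = 0.76), and Mmp19 and Ttc39c also lead cluster 18. Closest to Tsc22d3 were Klf2 (r = 0.79), Nfatc1 (r = 0.75) and Nr4a2 (r = 0.74), of which Nr4a2 is an immediate early gene. Closest to Nr3c1 were Zmym5 (r = 0.73), Kdm5a and Zfp207 (both r = 0.69). The other members lay below that minimum level themselves. Their closest genes were Aldoa (r = 0.86), Plcb4 (r = 0.81) and Pgam1 (r = 0.80) for Nr3c2, and Ago3 (r = 0.83), Tpm3-rs7 and Lgals9 (both r = 0.80) for Fkbp5. For Per1 they were Tspyl1 (r = 0.84), Tob2 (r = 0.82) and Msx1 (r = 0.81), and for Zbtb16 they were Lax1 (r = 0.83), Trac and Cd79a (both r = 0.79). The values for Zbtb16 again rest largely on cluster 22.

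The comparison of genotypes asks whether Angpt1 loss from neural crest derivatives goes with changes of these genes in TM1 to TM11, endothelium or epithelium. The pool TM1 to TM11 holds stromal labels and also the corneal endothelium TM2, which was led by Cldn10. In this pool, Hsd11b1 and Zbtb16 were higher in Angpt1ΔNC. Zbtb16 was at 1.15 and 1.58 CPM in the controls, from 21 and 36 UMIs, and at 5.45 in Angpt1ΔNC, from 85 UMIs. The log2 fold change was 1.98 ± 0.34 (SE), with adjusted p = 0.00973 (edgeR quasi-likelihood test, Benjamini-Hochberg over all genes tested). Hsd11b1 was at 5.53 and 7.39 CPM in the controls and 12.2 in Angpt1ΔNC, a log2 fold change of 0.91 ± 0.23 with adjusted p = 0.0464 (edgeR). For both genes the groups did not overlap.

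These 2 calls were made among 7 members tested, where 8.97% of all 13942 genes tested were called. Per1 (10.6, 14.5 and 7.64 CPM) and Nr3c1 (69.5, 59.7 and 49.3) were lowest in Angpt1ΔNC and were not called (adjusted p = 0.113 and 0.145, edgeR). Without the filter on low counts Per1 was called lower (adjusted p = 0.00845, edgeR). Tsc22d3 was at 99.9, 88.9 and 118 CPM (log2 fold change 0.33, adjusted p = 0.187, edgeR), and in cells typed as male it was called higher (0.70, adjusted p = 0.00419, edgeR). Fkbp5 was at 14.1, 16.8 and 13.2 and Nr3c2 at 4.60, 5.69 and 3.72, with adjusted p = 0.504 and 0.335 (edgeR). The summed level of 16 dissociation stress genes was 10668 and 9528 CPM in the controls and 8101 in Angpt1ΔNC, and its part in these values was not tested.

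Both calls in TM1 to TM11 moved with the processing. With the same number of cells of each label in every library, Zbtb16 was still called and Hsd11b1 was not (log2 fold change 0.71, adjusted p = 0.0718, edgeR), and neither passed the DESeq2 Wald test (adjusted p = 0.0660 and 0.306). In cells typed as male alone both were called, with log2 fold changes of 1.52 for Zbtb16 and 1.48 for Hsd11b1.

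In the pooled endothelial labels, Zbtb16 was the 1 member called of 6 tested, against 12.9% of all 9660 genes. It rested on 1 and 4 UMIs in the controls and 12 in Angpt1ΔNC, or 0.391, 1.30 and 6.54 CPM, with a log2 fold change of 2.98 ± 0.99 and adjusted p = 0.0396 (edgeR). Only the Angpt1ΔNC library reached the minimum of the filter on low counts. Zbtb16 thus entered this test through the library where it was high, which limits the weight of the call. Without control replicate 1 the log2 fold change was 1.92, on a scale with a prior count of 2. Nr3c1 (106, 106 and 82.3 CPM), Fkbp5 (50.8, 46.9 and 32.7), Tsc22d3 (46.2, 43.9 and 36.5) and Nr3c2 (7.43, 5.86 and 4.36) were lowest in Angpt1ΔNC, and Per1 (6.65, 8.14 and 11.99) was highest there. None of these 5 was called (adjusted p = 0.220 to 0.776, edgeR). In cells typed as male, Per1 was called higher (log2 fold change 1.83 against 0.85 in all cells, adjusted p = 0.0263, edgeR), from 9, 20 and 12 UMIs, and Zbtb16 was left untested by the filter on low counts.

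In the pooled epithelial clusters 2 to 5, none of 5 members tested was called by edgeR or by DESeq2, where 0.139% of all 12982 genes were called, and 3 members had an unadjusted edgeR p under 0.05. Per1 was at 2.03 and 3.97 CPM in the controls and 0.729 in Angpt1ΔNC, Fkbp5 at 1.06, 1.34 and 3.04, and Nr3c1 at 101, 86.3 and 63.5. Their adjusted p-values were 0.192, 0.144 and 0.186 (edgeR). The stress genes summed to 9878, 9084 and 5275 CPM in this pool, also lower in Angpt1ΔNC, and their part was not tested. Zbtb16 had 7, 3 and 7 UMIs and was not tested in the epithelium.

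Taken label by label, 9 of 137 tests of a member were called (6.57%), where 5.05% of all 249562 gene-by-label tests were, so the members as a whole stood near the background. Adjustment was over the genes of 1 label at a time, and 29 labels with at least 50 cells in every library were fitted. In male-typed cells 10 tests were called, of which 5 were among these 9. The other 5 were Tsc22d3 higher in TM1, TM6 and TM8, Hsd11b1 higher in cluster 17 and Nr3c1 lower in cluster 21, with 17 to 167 male-typed Angpt1ΔNC cells in each label.

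Hsd11b1 was called in TM9 alone of 12 labels tested. It was at 6.83 and 17.5 CPM in the controls, from 7 and 27 UMIs, and at 36.1 in Angpt1ΔNC, from 76. The log2 fold change was 1.57 ± 0.33 with adjusted p = 6.9e-05 (edgeR). It was 1.08 without control replicate 1 and 2.31 without control replicate 2, on a scale with a prior count of 2. In cluster 17, led by Lypd1 and Wnt6, the log2 fold change was 1.48 ± 0.47 with adjusted p = 0.186 (edgeR).

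Nr3c1 was called lower in 2 of 28 labels tested. In TM10 it was at 119 and 110 CPM in the controls and 59.8 in Angpt1ΔNC, with a log2 fold change of -0.89 ± 0.24 and adjusted p = 0.00517 (edgeR). In the limbal epithelium, cluster 4, it was at 92.9, 67.2 and 49.0, with a log2 fold change of -0.55 ± 0.18 and adjusted p = 0.0252 (edgeR), and without the filter on low counts it was -0.54 and not called (adjusted p = 0.513, edgeR). By label means, Angpt1ΔNC lay below both controls in 24 of 32 labels for Nr3c1, where 36.1% of all gene-label pairs with a UMI did so, and its median log2 fold change over tested labels was -0.35. The labels come from the same 3 libraries, so such a count is not 24 separate observations. Nr3c2 was called in none of 13 labels tested by edgeR, with 0 at an unadjusted p under 0.05, and in none by DESeq2.

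Per1 was called lower in cluster 4, from 15, 23 and 5 UMIs, or 2.53, 3.53 and 0.497 CPM (log2 fold change -2.44 ± 0.79, adjusted p = 0.0227, edgeR). Its log2 fold change was -2.28 without control replicate 1 and -1.73 without control replicate 2, on a scale with a prior count of 2. It was -2.32 in male-typed cells (adjusted p = 0.154, edgeR) and -2.42 without the filter on low counts (adjusted p = 0.460, edgeR). In cluster 4 only the controls reached the minimum of that filter, so Per1 entered the test through the group where it was high. Stress genes in that label summed to 8492, 7911 and 4612 CPM, and 16 clock genes other than Per1 to 412, 439 and 413. Angpt1ΔNC lay below both controls for Per1 in 19 of 32 label means, which share the same 3 libraries, against 36.1% of all gene-label pairs.

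Fkbp5 was called higher in TM3, a label led by Tnmd and Postn. It was at 2.11 and 5.08 CPM in the controls, from 3 and 11 UMIs, and at 19.3 in Angpt1ΔNC, from 19, with a log2 fold change of 2.30 ± 0.62 and adjusted p = 0.00556 (edgeR). It was 1.68 without control replicate 1 and 2.51 without control replicate 2, on a scale with a prior count of 2. In male-typed cells it was 1.70 and not called (adjusted p = 0.559, edgeR). In the corneal epithelium, cluster 5, Fkbp5 was at 0.873, 0.710 and 4.33 CPM and just missed the threshold (log2 fold change 2.52 ± 0.47, adjusted p = 0.0504, edgeR). In TM3 and in cluster 5 only the Angpt1ΔNC library reached the minimum of the filter on low counts. Fkbp5 thus entered both tests through the library where it was high, which limits their weight.

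Tsc22d3 was called in 3 labels and in both directions. In TM4 it was at 136 and 127 CPM in the controls and 223 in Angpt1ΔNC, a log2 fold change of 0.80 ± 0.19 with adjusted p = 0.0196 (edgeR). In cluster 21 it was at 203, 234 and 57.1, a log2 fold change of -1.85 ± 0.32 with adjusted p = 1.0e-06 (edgeR), and this was the 1 single-label call that DESeq2 also made. In TM9 it was at 107, 59.1 and 31.8, a log2 fold change of -1.24 ± 0.27 with adjusted p = 9.0e-05 (edgeR), and in male-typed cells there it was -0.75 and not called (adjusted p = 0.434, edgeR). The stress genes summed to 12268, 10223 and 11407 CPM in TM4, to 17656, 18825 and 11909 in cluster 21 and to 11857, 11374 and 8002 in TM9. They moved with Tsc22d3 in cluster 21 and TM9 and lay between the controls in TM4, and their part was not tested.

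Zbtb16 was called higher in the pigmented cluster 8, from 9, 7 and 24 UMIs, or 1.03, 0.937 and 4.58 CPM (log2 fold change 2.23 ± 0.52, adjusted p = 0.0282, edgeR), and in male-typed cells the log2 fold change was 2.02 with adjusted p = 0.194 (edgeR). In cluster 8 only the Angpt1ΔNC library reached the minimum of the filter on low counts. That filter asks for 1 library only, so a sparse gene can enter a test because Angpt1ΔNC is high. The log2 fold change of Zbtb16 was above 0 in 8 of 9 labels tested, with a median of 2.11. This direction is partly set by the filter and is no separate support. Of 32 label means, 29 held a UMI of Zbtb16. Angpt1ΔNC lay above both controls in 26 of those 29 and below both in 1, where 32.1% of all gene-label pairs with a UMI lay above both. These labels share the same 3 libraries, and the control counts in most of them were under 10 UMIs.

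**Figure D4:**
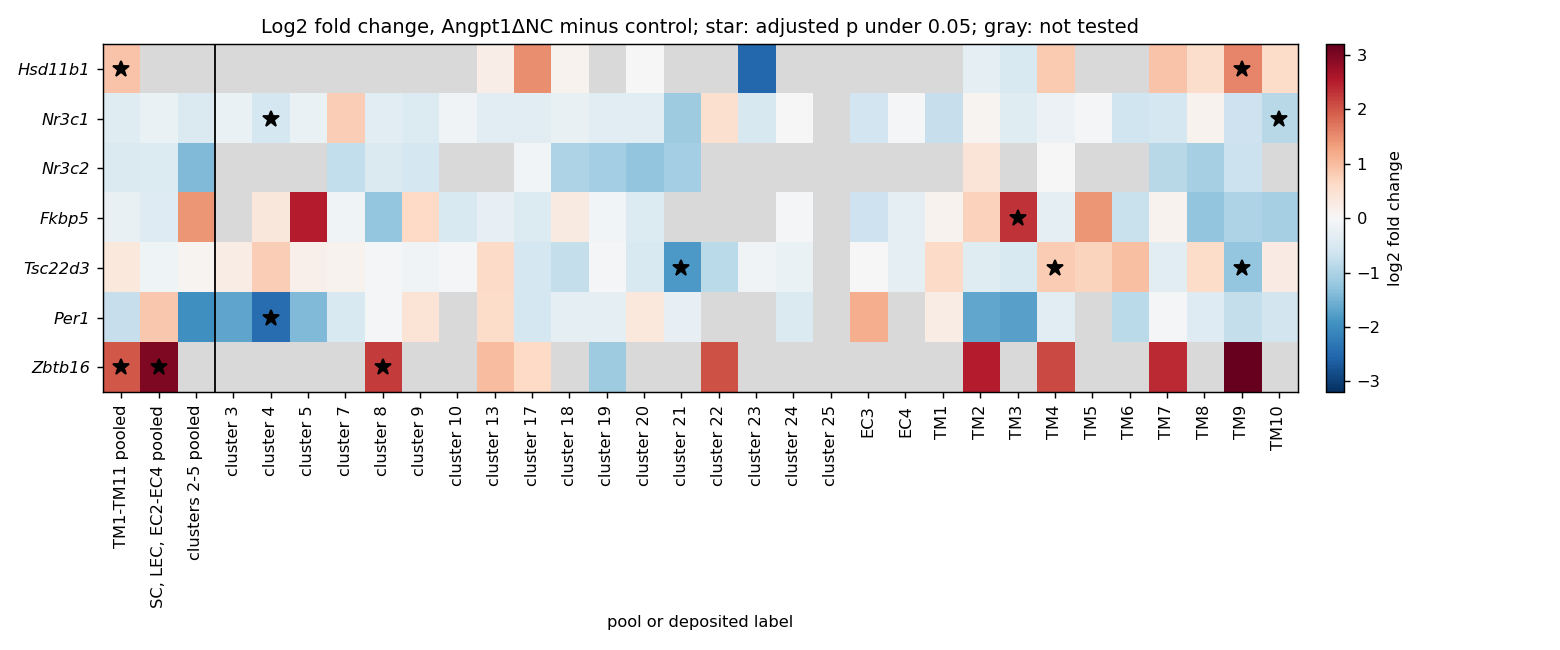
Log2 fold change (Angpt1ΔNC minus control, edgeR) of the 7 genes in 3 pools of labels (left of the line) and 29 single labels. Stars mark adjusted p under 0.05 and gray marks genes not tested. The 3 pooled calls and the 9 single-label calls are starred, with Tsc22d3 called higher in TM4 and lower in cluster 21 and TM9.

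Other genes of the pathway were followed in lists. Of 14 genes of steroid metabolism and transport, 10 were tested in TM1 to TM11 and 1 was called (10%, against 8.97% of all genes). This was Akr1c18, which inactivates progesterone. It was at 0.0547 and 0.0438 CPM in the controls, from 1 UMI in each, and at 3.40 in Angpt1ΔNC (adjusted p = 0.00115, edgeR). Akr1c18 passed the filter on low counts through the Angpt1ΔNC library alone, where it was high. H6pd, which supplies the cofactor of the Hsd11b1 enzyme, was at 10.2, 10.9 and 9.95 CPM there (adjusted p = 0.824, edgeR), and Hsd11b2, the inactivating enzyme, at 0.0547, 0.350 and 0. No gene of this list was called by edgeR or DESeq2 in endothelium, where 2 had an unadjusted edgeR p under 0.05, or in the epithelium, where 4 did.

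Of 15 receptor chaperones and cofactors, none was called by edgeR or DESeq2 in TM1 to TM11, where 4 had an unadjusted edgeR p under 0.05. In endothelium DESeq2 called 0 and edgeR called 3 lower (20%, against 12.9% of all genes). These were Hspa4 (log2 fold change -0.63), Ncor1 (-0.65) and Fkbp4 (-0.76), with adjusted p = 0.0111, 0.0112 and 0.0317 (edgeR). Fkbp4 is the co-chaperone that takes the place of Fkbp5 in the receptor complex on hormone binding, and Ncor1 is a corepressor. The median log2 fold change of the list in endothelium was -0.30, against -0.02 over all genes.

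Of 29 other glucocorticoid-induced genes, 28 were tested in TM1 to TM11, where 1 was called higher and 4 lower (17.9%, against 8.97% of all genes). DESeq2 called 3 of them there. Cebpd, a transcription factor also induced in inflammation, was at 2559 and 2357 CPM in the controls and 686 in Angpt1ΔNC (log2 fold change -1.84 ± 0.16, adjusted p = 0.00037, edgeR). Cebpb, Myoc and Pdk4 were also called lower (log2 fold changes -0.86, -0.78 and -1.13) and Map3k6 higher (0.89). Myoc, the myocilin gene of trabecular cells, was at 1504, 1715 and 934 CPM. The make-up of TM1 to TM11 differed, with TM7 at 667 of 2803, 739 of 3324 and 174 of 1946 cells. For the genes of all lists called in TM1 to TM11, the part of its make-up was not tested. The median of the list was -0.09, against -0.01 over all genes.

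In endothelium the direction was mixed the other way, with 9 of the 26 tested called higher and 3 lower (46.2%, against 12.9% of all genes) and a median of 0.31. DESeq2 called 4 of the list there. The 16 dissociation stress genes had 43.8% called and a median of 0.32 in the same pool, and their part was not tested. The smallest adjusted p-values were those of Lcn2 (30.5, 23.8 and 116 CPM), Map3k6 (9.78, 10.4 and 38.2), Glul (97.0, 114 and 207), Errfi1 (418, 422 and 718) and Mt1 (650, 567 and 952), all higher in Angpt1ΔNC. Lcn2, an antimicrobial siderophore-binding protein, was also the 1 gene of this list that edgeR called in the epithelium, at 104, 104 and 355 CPM (log2 fold change 1.86 ± 0.13, adjusted p = 0.0385, edgeR). Of the 26 tested in the epithelium, 13 had an unadjusted edgeR p under 0.05, and DESeq2 called 8. These genes answer to other signals as well, and the difference between pools was not tested. The make-up of the endothelial pool differed, with EC4 at 96 of 295, 107 of 327 and 87 of 209 cells. Label SC had 15 Angpt1ΔNC cells of 124 in all. For the list genes called in this pool, the part of its make-up was not tested.

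Of 16 clock genes, Bhlhe40 and Hlf were called lower in TM1 to TM11 (log2 fold changes -0.85 and -1.15) and Nr1d1 higher (0.80). These made up 20% of the 15 tested, against 8.97% of all genes. In endothelium Bhlhe40 was called higher (0.48) and Dbp lower (-1.04), or 14.3% of the 14 tested, near the 12.9% of all genes. DESeq2 called 0 there. In the epithelium edgeR called none (2 at an unadjusted p under 0.05) and DESeq2 called 1. Of 16 dissociation stress genes, Junb, Nr4a1 and Dnajb1 were called lower in TM1 to TM11 (18.8%, against 8.97% of all genes). Their log2 fold changes were -0.88, -0.89 and -0.75. In endothelium 5 were called higher and 2 lower (43.8%, against 12.9% of all genes). The 2 lower ones were the heat shock genes Hspa1a (386, 341 and 59.4 CPM) and Hspa1b (131, 157 and 40.9). In the epithelium all 16 had a log2 fold change below 0, with a median of -0.73. None was called by edgeR, 11 had an unadjusted p under 0.05, and DESeq2 called 10.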

How the data were processed

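Single cells were captured on a droplet platform from pooled eyes of 2 control samples and 1 Angpt1ΔNC sample, and the authors deposited UMI count matrices with 1 row per gene and 1 column per called cell. Per the labels and the study's methods, reads were aligned to mm10 with Cell Ranger (2.1.1 per the submitters' processing notes, 3.0.2 per the file headers), and cells were filtered, cleared of doublets and clustered in Seurat 3.1.3. The deposited table of kept cells supplied the labels. Its integrated values of 3467 genes were not used. Hsd11b1 and Tsc22d3 are among those genes.

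UMI counts were summed per library and label or pool. Genotypes were compared with edgeR 4.0.16 (glmQLFit and glmQLFTest, TMM factors, filterByExpr, Benjamini-Hochberg over all genes tested, called at adjusted p under 0.05) in R 4.3.3, which left 1 residual degree of freedom. The SE is the log2 fold change divided by the square root of the F statistic. The filter on low counts (filterByExpr) asks only 1 library to reach its minimum, so a gene high in 1 library alone can be tested. Alternatives were DESeq2 1.42.0, its size factors in edgeR, no filter, male-typed cells (a UMI of Ddx3y, Eif2s3y, Kdm5d or Uty and none of Xist), equal label make-up, and each control left out. With a control left out, the log2 fold change is a difference of log2 CPM with a prior count of 2. At low counts that scale gives smaller changes than the edgeR fit, so the 2 are not directly comparable. Likeness of genes across labels was Pearson's r on log2(level + 0.1) over genes reaching 0.5 UMIs per 10,000 in a label. The text names all 7 members, the 3 genes most like each, and up to 5 called genes per list and pool. On simulated data, 67% of 2-fold and 92% of 4-fold changes were recovered in the TM1 to TM11 pool and in the endothelial pool. In the epithelial pool the shares were 43% and 83%. These shares were not split by UMI count, so recovery of sparse genes such as Zbtb16 and Nr3c2 was not tested separately. Recovery in single labels was not tested. Members and lists were chosen with earlier results of these data known.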

Additional observations from a re-analysis of the deposited data

Results flagged for a closer look

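Tsc22d3 went in opposite directions in different labels under the same comparison of genotypes. Its log2 fold change, Angpt1ΔNC minus control, was 0.80 in TM4, -1.85 in cluster 21 and -1.24 in TM9, each past the threshold in edgeR, with Angpt1ΔNC above both controls in TM4 and below both in the other two. The difference between these labels was not tested.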

How the results depend on the processing

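With DESeq2 size factors in edgeR, all 2, 1 and 9 calls in TM1 to TM11, the endothelial pool and single labels were shared, with 2 more over single labels. In male-typed cells both calls in TM1 to TM11 were shared and Tsc22d3 was added, the endothelial call was Per1 in place of Zbtb16, and 5 of the 9 calls over single labels were shared, with 5 others. DESeq2 called 0 members in TM1 to TM11 and 0 in the endothelial pool, where it gave Zbtb16 no adjusted p, and 1 over single labels, where 7 of the 9 edgeR calls had an adjusted p. Equal label make-up left 1 call in TM1 to TM11, and 0 in the endothelial pool, where Zbtb16 was no longer tested. Without the filter on low counts 3 members were called in clusters 2 to 5 (Fkbp5, Nr3c1 and Per1), Per1 was added in TM1 to TM11, and 7 of the 9 calls over single labels were shared, with 3 others. Uncalled log2 fold changes that turned sign were those of Nr3c2 (0.10) and Fkbp5 (0.14) in the endothelial pool in male-typed cells, and Tsc22d3 in clusters 2 to 5, at 0.34 without control replicate 1 and -0.12 without control replicate 2. Beyond fewer tested genes or cells, the cause was not tested. Zbtb16 and Nr3c2 rest on few UMIs per label, which limits their precision. No paired analysis was possible because the 2 groups share 1 replicate number at most.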
